A study of Mus musculus with 8 samples.

Results

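Txnip and Arrdc4 are 2 arrestin-domain genes, chosen by symbol because the poly(A) RNA of both was lower with siLin28a than with siLuc and than in untreated cells. They are 2 of 7820 transcripts in the LIN28A CLIP table, 2 of 16456 in the poly(A) table and 2 of 7936 in the footprint table, with 1 transcript per gene in each. TXNIP and ARRDC4 belong to the alpha-arrestins, scaffold proteins that bring NEDD4-type ubiquitin ligases to membrane cargo. TXNIP is known to bind reduced thioredoxin and to lower glucose uptake by promoting the internalisation of the glucose transporter GLUT1, and ARRDC4 has likewise been tied to lower glucose uptake. Both genes are textbook targets of MondoA and ChREBP, transcription factors that pair with MLX, respond to glucose metabolites and bind carbohydrate response elements in promoters.

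All 8 libraries were made from A3-1 cells, a line of mouse embryonic stem cells cultured with serum and LIF. The siLin28a cells carried siRNA to Lin28a for 48 h, the siLuc cells carried siRNA to luciferase for the same time, and the untreated cells had no siRNA; each gave 1 poly(A) library, and siLin28a and siLuc each gave 1 library of ribosome footprints, the mRNA fragments that ribosomes protect. LIN28A, an RNA-binding protein of pluripotent cells, was immunoprecipitated after UV crosslinking (CLIP) in cells with no siRNA, with the monoclonal antibodies 35L33G and 2J3 and a polyclonal antibody, 1 library each. With 1 library per siRNA condition, changes carry no p-value, and their 95% intervals cover counting error only. In these bulk samples, fewer cells with a transcript and less of it per cell cannot be told apart.

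The siRNA duplexes are the labelled difference between siLin28a and siLuc cells, so their strands are shown as the labels list them, without the DNA overhangs. With 1 library each, differences in culture or library preparation cannot be told apart from that of the duplexes. Capitals mark bases 2 to 8, the seed; the labels do not say which strand is the guide.
siLin28a strand 1: aUGUUCUUcccuuuuggcc
siLin28a strand 2: gGCCAAAAgggaagaacau
siLuc strand 1: uCGAAGUAcucagcguaag
siLuc strand 2: cUUACGCUgaguacuucga

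The promoters of both genes are shown because the 2 mRNAs moved together and because both genes are known for glucose-response elements. Each window runs from 250 bases before to 50 bases after the RefSeq start in GRCm38.p6, read on the gene's strand: chr3:96557707-96558006 (plus strand) for Txnip and chr7:68749189-68749488 (minus strand) for Arrdc4. Capitals mark CAAT boxes (CCAAT or its complement ATTGG), the E-box CACGTG, and a pair of E-box-like sites, CACGNG and CNCGNG with 5 bases between them, as in carbohydrate response elements.
Txnip: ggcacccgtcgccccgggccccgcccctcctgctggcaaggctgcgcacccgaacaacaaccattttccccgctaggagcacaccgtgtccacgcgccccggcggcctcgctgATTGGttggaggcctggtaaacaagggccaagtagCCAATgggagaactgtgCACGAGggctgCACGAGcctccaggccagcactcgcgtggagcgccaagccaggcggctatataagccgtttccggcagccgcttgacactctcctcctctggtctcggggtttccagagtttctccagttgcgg
Arrdc4: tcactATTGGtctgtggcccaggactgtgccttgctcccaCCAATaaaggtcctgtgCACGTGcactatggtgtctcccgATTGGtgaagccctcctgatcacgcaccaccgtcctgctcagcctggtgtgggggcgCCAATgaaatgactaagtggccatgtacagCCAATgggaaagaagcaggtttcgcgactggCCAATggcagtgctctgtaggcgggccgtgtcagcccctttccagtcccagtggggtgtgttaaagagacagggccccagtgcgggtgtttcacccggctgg

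The Txnip window held 1 paired site, 85 to 69 bases before the start, and 2 CAAT boxes, whose first bases lay 137 and 102 bases before it. The Arrdc4 window held no such pair; it held 1 E-box, 193 to 188 bases before the start, and 6 CAAT boxes, the nearest 52 bases before it. Both strands were searched, no match overlapped another, and of 32851 RefSeq promoter windows 0.365% held the pair, 7.15% the E-box and 37.4% a CAAT box; 6 or more CAAT boxes occurred in 0.0791%. Of the other glucose-response genes listed, 8 had a window, and Pklr alone held the pair. A match is only a run of letters, and its absence from a window says nothing about binding.

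**Figure D1:**
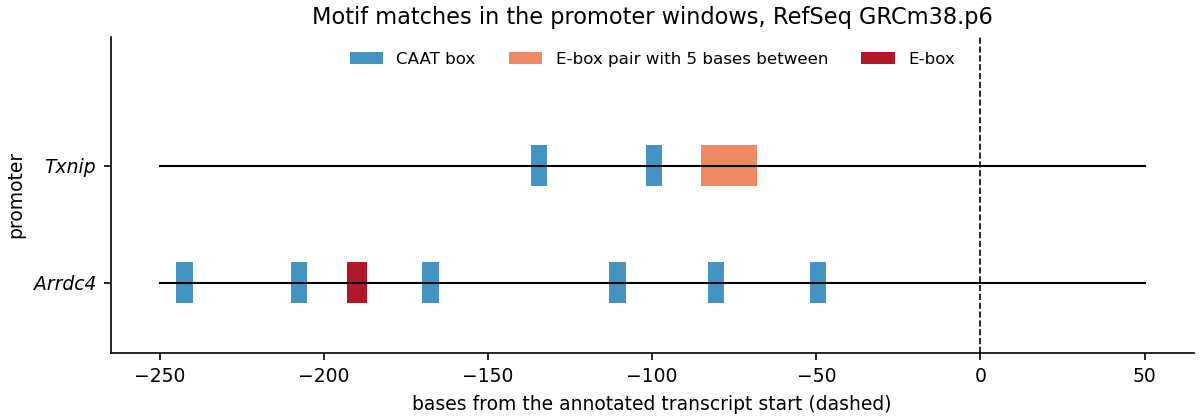
Motif matches in the Txnip and Arrdc4 promoter windows, by distance in bases from the annotated start (dashed), with coloured blocks for the CAAT box, the paired sites and the E-box. The pair lies 85 to 69 bases before the Txnip start, and the 6 CAAT boxes of Arrdc4 flank its E-box 193 bases before the start.

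Txnip (NM_001009935; mm9 chromosome 3, 96361880 to 96365780) has 8 exons and a mature length of 2801 bases, of which 1194 are coding. Arrdc4 (NM_001042592; mm9 chromosome 7, 75881880 to 75894124) also has 8 exons, over 3903 bases with 1248 coding. None of the other transcripts in the files overlapped either gene.

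The siRNA left 33.4% of the siLuc level of Lin28a mRNA, at 118 CPM (counts scaled to the size of the library) with siLin28a, 354 with siLuc and 465 in untreated cells. Poly(A) libraries held 7475174 to 9605641 counts, footprint libraries 5980673 and 7570209, and CLIP libraries 7698479 to 8027670 exon counts. All 10 stem cell markers listed were measured, with summed levels of 4042 RPKM with siLin28a, 3265 with siLuc and 3189 in untreated cells. Of the 8 fibroblast markers, 4 had a row and were summed at 6.59, 13.9 and 14.6 RPKM in the same order, of which Thy1 made up 6.12, 13.4 and 13.9, while Col1a1, Col1a2 and Pdgfra stood at 0.37 RPKM or less. Thy1 was lower with siLin28a than in both other libraries, as the arrestins were, but not higher with siLuc than in untreated cells (log2 change −0.05, −0.34 to 0.24); its part in their change was not tested. Of endoderm markers 5 of 6 had a row, none above 0.38 RPKM, with sums of 0.899 RPKM with siLin28a, 1.08 with siLuc and 0.587 in untreated cells. Of mesoderm and ectoderm markers 5 of 6 had a row, none above 1.11 RPKM, with sums of 3.44, 1.69 and 1.65 RPKM in the same order. Among them Sox1 had 43 counts with siLin28a, 14 with siLuc and 6 in untreated cells, and Mixl1 21, 3 and 12; their part in the arrestins' change was not tested. Gata6 was listed at 0 with siLuc and Sox7 in untreated cells.

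Poly(A) RNA of both arrestins was lowest with siLin28a, highest with siLuc and intermediate in untreated cells. Txnip, the thioredoxin-binding member, had 948 counts with siLin28a, 2122 with siLuc and 1461 in untreated cells. In RPKM, CPM per kilobase of transcript, it stood at 35.2 with siLin28a (33.03 to 37.55), 101 with siLuc (97.1 to 106) and 56.3 in untreated cells (53.4 to 59.3). The 3 counting intervals did not overlap, although no replicate shows how far such a level varies between cultures. 

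Arrdc4, the arrestin-domain paralog, had 216 counts with siLin28a, 533 with siLuc and 474 in untreated cells. Its level was 5.76 RPKM with siLin28a (5.02 to 6.58), 18.3 with siLuc (16.8 to 19.9) and 13.1 in untreated cells (11.95 to 14.34), and again no interval overlapped its neighbour. Txnip was the more abundant transcript per length in every library, by 6.12 times with siLin28a, 5.55 times with siLuc and 4.29 times in untreated cells. Among all 16456 transcripts listed for poly(A) RNA, many of them scarce, Txnip stood above 83.7% with siLin28a, 95.6% with siLuc and 90.1% in untreated cells. Arrdc4 stood above 49.8%, 71.4% and 64.6% of them in the same order. Among all listed transcripts it was thus mid-ranking with siLin28a and higher-ranking elsewhere. The 9672 transcripts with enough counts to be ranked for changes had medians of 17.4 RPKM with siLin28a, 17.3 with siLuc and 17.5 in untreated cells. Arrdc4 lay below that median with siLin28a and in untreated cells, and just above it with siLuc.

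**Figure D2:**
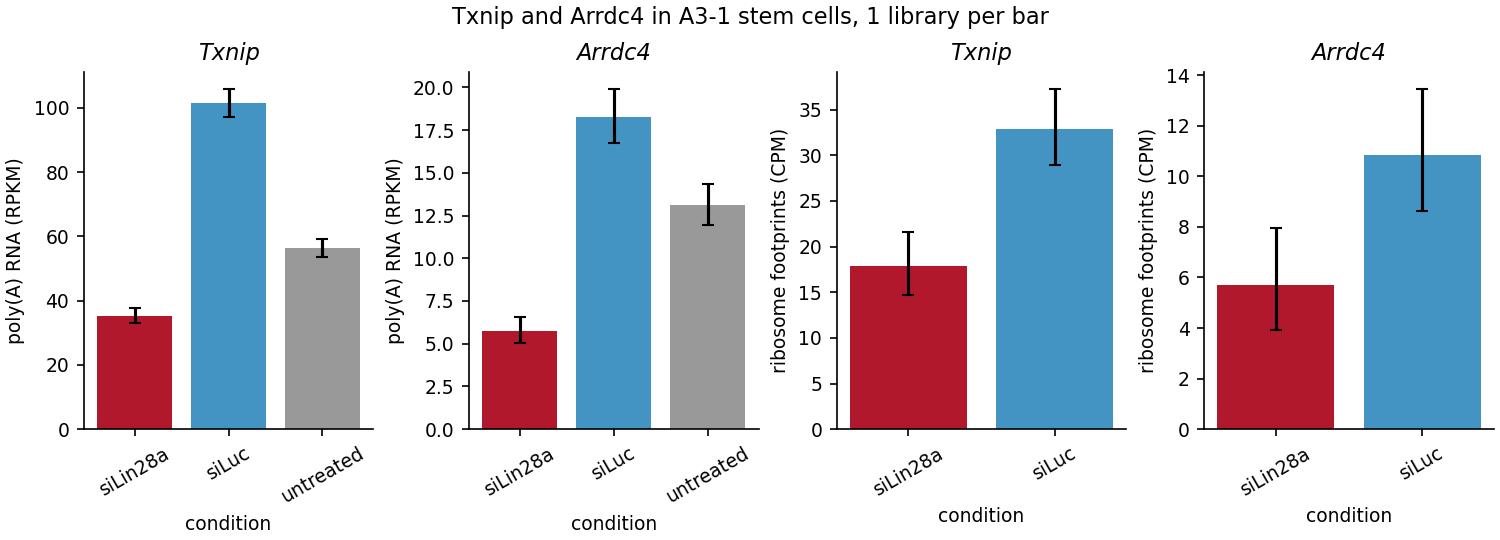
Poly(A) RNA (RPKM) and ribosome footprints (CPM) of Txnip and Arrdc4 by condition; each bar is 1 library and each line its 95% Poisson interval for counting error. Poly(A) bars run 35.2, 101 and 56.3 RPKM for Txnip and 5.76, 18.3 and 13.1 RPKM for Arrdc4, from siLin28a to siLuc to untreated cells.

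Against siLuc, Txnip was lower by 1.52 on the log2 scale (log2 change −1.52, interval −1.64 to −1.41), which left 34.8% of its siLuc level. Arrdc4 was at −1.66 (−1.90 to −1.43), or 31.5% of its siLuc level. They ranked 9th and 6th from the lowest of 9672 changes, whose median was near 0 and whose spread (scaled median absolute deviation) was 0.37. Of all transcripts tested, 0.631% were at least 2-fold lower with siLin28a than with siLuc, both arrestins among them; since the genes were chosen on this comparison, nothing is read from that.

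Against untreated cells the changes were smaller. Arrdc4 stood at −1.18 (−1.42 to −0.95), with 44.0% of the untreated level, and Txnip at −0.68 (−0.80 to −0.56), with 62.6%. Arrdc4 was thus past 2-fold, as were 0.827% of transcripts, and Txnip was not; they ranked 42nd and 369th from the lowest. Being lower than both other libraries by any amount, the condition on which they were chosen, held for 36.2% of transcripts, and being 2-fold lower than both, as Arrdc4 was, held for 0.196%.

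The luciferase siRNA itself went with a higher level of both arrestins than no siRNA. With siLuc, Txnip was at 180% of the untreated level (log2 change 0.85, 0.75 to 0.95), ranked 9570th of 9672 from the lowest. Arrdc4 was at 139% (0.48, 0.30 to 0.66), while 0.465% of transcripts were 2-fold higher with siLuc. The comparison with siLuc is therefore the larger of the 2 for each gene, and because the comparisons share libraries they are given only side by side. What made siLuc and untreated cells differ was not tested. Within 100 kb of Txnip, the expressed neighbours Polr3gl, a subunit of RNA polymerase III, and Lix1l changed by 0.18 and 0.02 against siLuc and by 0.45 and 0.37 against untreated cells; no neighbour of Arrdc4 that close had 200 counts.

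Footprints of both arrestins were also lower with siLin28a. Txnip had 107 footprints with siLin28a and 249 with siLuc, or 17.9 CPM (14.7 to 21.6) and 32.9 CPM (28.9 to 37.2). That is a log2 change of −0.87 (−1.22 to −0.55), with 54.4% of the siLuc level left. Arrdc4 had 34 and 82 footprints, 5.68 CPM (3.94 to 7.94) with siLin28a and 10.8 CPM (8.61 to 13.4) with siLuc, a change of −0.92 (−1.55 to −0.34) with 52.5% left. These libraries were not used to choose the genes, but they come from the same 2 siRNA conditions, 1 library each.

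Footprint changes spread more widely than mRNA changes, with a median of −0.21 and a spread of 0.63 over 6323 transcripts with 200 or more footprints; Arrdc4 lay under that number. Neither arrestin passed 2-fold in footprints, whereas 9.14% of transcripts were 2-fold lower, and Txnip ranked 835th from the lowest. With TMM scaling, which moves the median transcript to 0.01, 3.87% of transcripts were 2-fold lower and 8.65% higher, against 9.14% and 3.84% by total counts, and the footprint changes were −0.65 (−0.99 to −0.32) for Txnip and −0.69 (−1.32 to −0.11) for Arrdc4. In the footprint table's own poly(A) tally, Txnip had 535 counts with siLin28a and 1144 with siLuc, a change of −1.45. Arrdc4 had 150 and 285, a change of −1.28 (−1.58 to −0.99), less than in the poly(A) table.

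Ribosome density, footprints relative to mRNA, lay below the median transcript for both arrestins in both conditions. For Txnip the log2 density, footprint CPM over poly(A) CPM, was −1.70 with siLin28a and −2.27 with siLuc, and 21.0% and 4.24% of 7799 transcripts lay lower. For Arrdc4 it was −1.50 with siLin28a and −1.87 with siLuc, with 25.9% and 8.64% lower. The medians over all transcripts were −0.65 and −0.33, with spreads of 1.42 and 1.11, so with siLin28a both arrestins lay within 1 spread of the median. The genes were chosen with poly(A) RNA higher with siLuc than with siLin28a, so a low density with siLuc is in part built in. Centred on the median transcript, density was higher with siLin28a by 0.79 for Txnip (0.43 to 1.15) and by 0.58 for Arrdc4 (−0.06 to 1.22). The poly(A) term of this difference is the one on which the genes were chosen as low, so a higher density is in part built in by that choice, and the values are a description. The Arrdc4 interval includes 0, and neither change reached 2-fold, which 5.24% of transcripts did upward and 3.77% downward; 88.5% and 81.2% of transcripts changed by less or fell. In the authors' deposited table the log2 density change was 0.51 for Txnip and 0.29 for Arrdc4, with a median of −0.28.

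**Figure D3:**
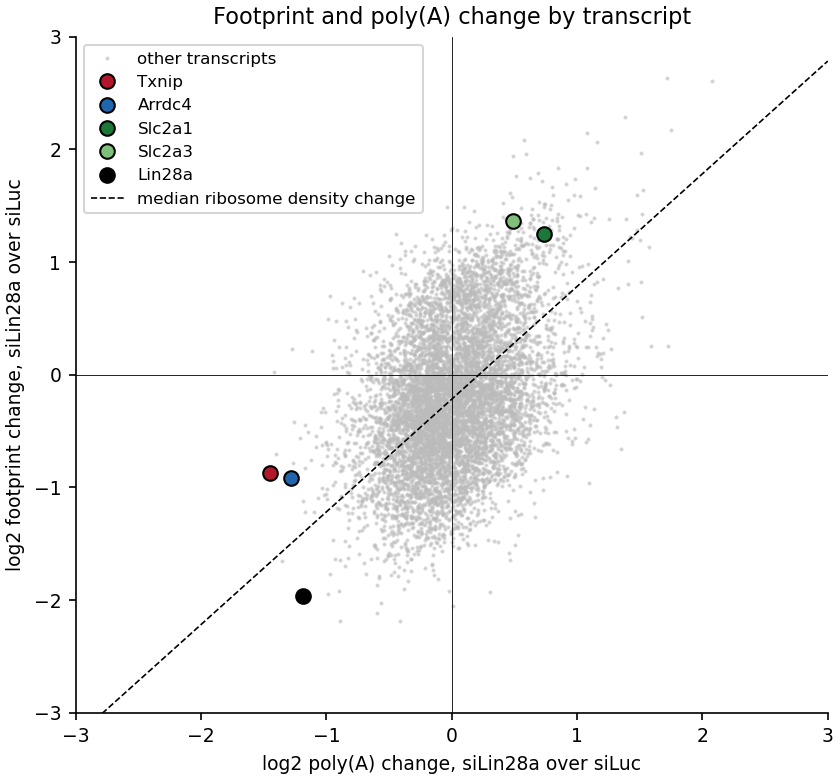
Log2 change with siLin28a over siLuc in poly(A) RNA (horizontal, footprint table tally) and in footprints (vertical) for 7799 transcripts, grey, with 5 genes coloured; the dashed line marks the median density change. Txnip (−1.45, −0.87) and Arrdc4 (−1.28, −0.92) lie at the far left and above the line, Lin28a (−1.19, −1.96) below it, and Slc2a1 and Slc2a3 at the upper right.

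LIN28A CLIP reads were enriched on both arrestin mRNAs over untreated poly(A) RNA. Txnip had 2600 exon reads with 35L33G, 2273 with 2J3 and 2558 with the polyclonal antibody, or 338, 290 and 319 CPM, against 1461 reads and 164 CPM in untreated poly(A) RNA over the same transcripts. Its log2 enrichment was 1.40, 1.19 and 1.33, or 1.31 ± 0.11 (SD, n = 3 antibodies; edgeR quasi-likelihood test, adjusted p = 3.8e-09). Arrdc4 had 639, 519 and 645 exon reads, or 83.0, 66.1 and 80.3 CPM, against 474 reads and 53.2 CPM in poly(A) RNA. Its enrichment was 1.00, 0.68 and 0.97, or 0.88 ± 0.18 (SD, n = 3; edgeR adjusted p = 0.000836). Every antibody library lay above the input for both genes, and each antibody placed Txnip above Arrdc4, by 0.42 ± 0.07 (SD, n = 3). The antibodies share 1 input library, so this SD holds no error of the input. With siLuc as input the 2 genes lay close together, at 0.47 for Txnip and 0.42 for Arrdc4.

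Enrichment was common, with 34.6% of 7820 transcripts called enriched and 33.3% depleted, and 84.7% of transcripts lay below Txnip and 76.1% below Arrdc4. The 3 antibody libraries are not stated to be separate cultures, so their spread may be technical, and the lone input library is taken to vary as they do. The input is also a library by which the genes were chosen. With the siLuc library as input, where both mRNAs were more abundant, enrichment was 0.47 for Txnip (edgeR adjusted p = 0.000625) and 0.42 for Arrdc4 (adjusted p = 0.066), and the Arrdc4 call was lost; over the other alternatives Arrdc4 stayed at adjusted p = 0.0303 or less. There was no control immunoprecipitation among the libraries.

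CLIP reads on the arrestins lay more in the 3′ UTR than poly(A) reads did. The coding share of coding plus 3′ UTR reads on Txnip was 34.8% with 35L33G, 40.6% with 2J3 and 40.3% with the polyclonal antibody (38.6% ± 3.26, SD, n = 3), against 54.7% in the poly(A) column of the same table (binomial interval 51.9 to 57.4). On Arrdc4 it was 30.8%, 31.5% and 34.9% (32.4% ± 2.21, SD, n = 3), against 56.2% in poly(A) (51.4 to 60.9). All 6 CLIP shares lay below both poly(A) intervals, while the median transcript had 66.0%, 65.5% and 65.1% in CLIP and 70.0% in poly(A).

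The shift toward the 3′ UTR, the log2 ratio of 3′ UTR to coding reads in CLIP over that in poly(A), was 0.94 ± 0.20 for Txnip and 1.42 ± 0.14 for Arrdc4 (SD, n = 3 antibodies each). The median of 6803 transcripts was 0.31 with a spread of 1.23, so 69.9% of transcripts shifted less than Txnip and 81.2% less than Arrdc4. By region, 3′ UTR enrichment was 1.81 ± 0.19 for Txnip and 1.59 ± 0.16 for Arrdc4. Coding enrichment was 0.87 ± 0.10 for Txnip and 0.17 ± 0.22 for Arrdc4, where the 2J3 library stood at −0.06. The poly(A) column used for regions names no condition.

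**Figure D4:**
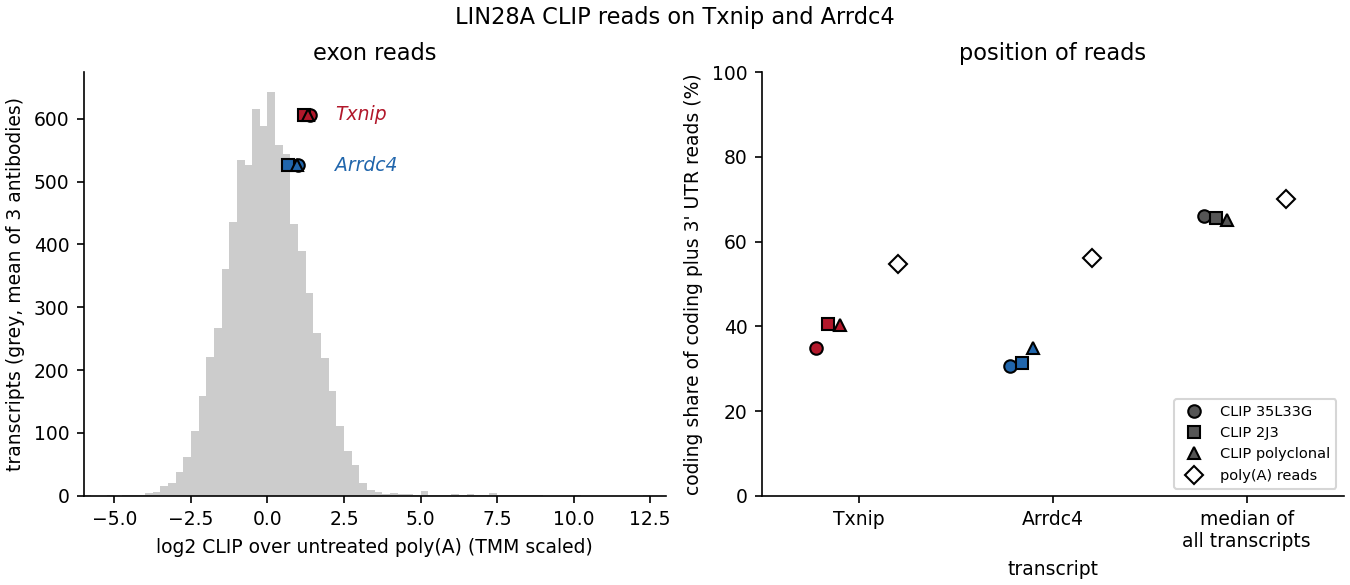
Left, log2 CLIP enrichment of exon reads over untreated poly(A) RNA for 7820 transcripts (grey, mean of 3 antibodies) with each antibody's value for Txnip and Arrdc4 as symbols at an arbitrary height; right, the coding share of coding plus 3′ UTR reads by antibody (filled) and in poly(A) RNA (open). Enrichment means were 1.31 and 0.88, and CLIP shares of 30.8 to 40.6% lay below the poly(A) shares of 54.7% and 56.2%.

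No other alpha-arrestin tested was 2-fold lower with siLin28a, as Txnip and Arrdc4 both were against siLuc and only Arrdc4 of the pair was against untreated cells. Of 4 listed, 3 had 200 or more poly(A) counts, and none was 2-fold lower or higher with siLin28a than with siLuc (1.93% of all transcripts were higher) or than in untreated cells (2.34% were higher); their medians were −0.04 and −0.13. Arrdc3, tied to the internalisation of beta-adrenergic receptors, was at 13.2 RPKM with siLin28a, 13.5 with siLuc and 12.2 in untreated cells, a level near that of Arrdc4 in untreated cells, with changes of −0.04 (−0.23 to 0.15) and 0.11. Arrdc1, a scaffold for vesicle budding at the plasma membrane, was at 7.25, 5.76 and 7.96 RPKM in the same order. Arrdc2 was at 6.12, 6.84 and 9.02 RPKM, and its change against untreated cells was −0.56 (−0.88 to −0.24). That overlaps the change of Txnip in the same comparison, −0.68 (−0.80 to −0.56). Against siLuc, Arrdc2 was at −0.16 (−0.52 to 0.21), so it too was lower than both other libraries. Arrdc3 alone of these was in the CLIP table, with an enrichment of 0.10 ± 0.19 (SD, n = 3; edgeR adjusted p = 0.71). Its 54 footprints with siLin28a and 97 with siLuc gave a change of −0.50 (−1.01 to −0.01). By the footprint table's own poly(A) tally its mRNA changed by −0.47, unlike the −0.04 above, and its median-centred density change was 0.19.

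The beta-arrestins, adaptors of G-protein-coupled receptors, gave unlike values. Arrb1 was at 3.37 RPKM with siLin28a, 6.0 with siLuc and 7.16 in untreated cells, with changes of −0.83 (−1.08 to −0.58) and −1.09 (−1.32 to −0.86), the second of them past 2-fold. Arrb2 was at 45.5, 41.7 and 46.5 RPKM in the same order, with changes of 0.13 and −0.03, and was depleted in CLIP at −1.01 ± 0.11 (SD, n = 3). Its footprints fell all the same, from 261 with siLuc to 109 with siLin28a, a change of −0.92 (−1.26 to −0.59). That is near the footprint changes of Txnip and Arrdc4, but the ribosome density change of Arrb2, −0.98, was opposite in sign to theirs.

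The glucose-sensing factors had small changes in mRNA. Mlxip, which encodes MondoA, was at 8.43 RPKM with siLin28a, 8.85 with siLuc and 10.2 in untreated cells, with changes of −0.07 (−0.25 to 0.11) and −0.28 (−0.44 to −0.12). Mlx, its partner, was at 34.3, 33.5 and 41.3 RPKM, with changes of 0.03 (−0.14 to 0.20) and −0.27 (−0.42 to −0.12). Both were depleted in CLIP, at −0.67 ± 0.06 and −1.41 ± 0.35 (SD, n = 3 each). Mlxipl, which encodes ChREBP, had 30 counts with siLin28a, 13 with siLuc and 42 in untreated cells, too few to rank.

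Of 12 other genes known as ChREBP or MondoA targets, 8 had 200 or more counts, and none was 2-fold lower or higher in poly(A) RNA with siLin28a than with siLuc or than in untreated cells. Their medians were −0.24 against siLuc and −0.17 against untreated cells. By any amount, however small, 5 of the 8 were lower than both, against 36.2% of all transcripts. Klf10, a zinc-finger repressor, was at 35.1 RPKM with siLin28a, 52.1 with siLuc and 45.6 in untreated cells, the same order as the arrestins, with changes of −0.57 (−0.69 to −0.45) and −0.38 (−0.50 to −0.26). Acaca, acetyl-CoA carboxylase, changed by −0.39 and −0.38, and Acly, ATP citrate lyase, by −0.21 and −0.32. In CLIP 5 of 7 were enriched and 2 depleted, against 34.6% and 33.3% of all transcripts. Klf10 stood at 1.23 ± 0.06 and Acaca at 1.00 ± 0.15, near Txnip and Arrdc4, and Acly at −1.69 ± 0.13 (SD, n = 3 each). In footprints 3 of 7 were 2-fold lower (Acaca −1.44, Acly −1.69 and Fasn −1.20), against 9.14% of transcripts. Elovl6 alone was 2-fold higher (1.42), against 3.84% of transcripts. Fasn and Elovl6 were named after their values were seen. With TMM scaling 2 of 7 were 2-fold lower, against 3.87% of transcripts, and Fasn, at −0.97, was no longer among them.

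Of the glucose transporters, Slc2a1 and Slc2a3 had higher values with siLin28a, under 2-fold in mRNA and over 2-fold in footprints, while Slc2a8 did not pass 2-fold in either. Slc2a1, which encodes GLUT1, was at 337 RPKM with siLin28a, 218 with siLuc and 169 in untreated cells, with changes of 0.63 (0.57 to 0.68) and 1.00 (0.95 to 1.05), the second just under 2-fold before rounding. Its footprints numbered 19733 with siLin28a and 10516 with siLuc, a change of 1.25 (1.21 to 1.28). Slc2a3, which encodes GLUT3, was at 568, 420 and 409 RPKM, with changes of 0.43 and 0.47 and a footprint change of 1.37 (1.34 to 1.39). Slc2a8 changed by 0.05 and −0.28. Over the 5 of 9 transporters and hexokinases tested, none passed 2-fold in mRNA in either comparison and the medians were 0.15 and 0.29. In footprints 2 were 2-fold higher and 1 lower, against 3.84% and 9.14% of all transcripts. The lower was Hk2 at −1.21 (named after its value was seen), which with TMM scaling stood at −0.98 and was no longer past 2-fold. CLIP called 1 of 5 enriched (Slc2a3, 1.36 ± 0.05, SD, n = 3) and 2 depleted, against 34.6% and 33.3% of all transcripts. Slc2a1 stood at 0.02 ± 0.17 (SD, n = 3, edgeR adjusted p = 0.81). With siLin28a, Slc2a1 and Slc2a3 thus moved opposite to Txnip and Arrdc4 in both mRNA and footprints, in the same single libraries. With siLuc over untreated cells they did not. There Slc2a1 was at 0.37 (0.31 to 0.43) and Slc2a3 at 0.04 (0.004 to 0.07), higher as both arrestins were. A link between the transporters and the arrestins was not tested.

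The thioredoxin system, which TXNIP binds into, held 12 tested members, none past 2-fold in either comparison, with medians of −0.03 and −0.11. Txn1, cytosolic thioredoxin, was at 188 RPKM with siLin28a, 169 with siLuc and 276 in untreated cells, with changes of 0.15 (0.05 to 0.25) and −0.56 (−0.64 to −0.47), so its order over the libraries was not that of Txnip. Mitochondrial Txn2 changed by −0.29 and −0.66 and the reductase Txnrd1 by −0.10 and −0.15. In CLIP 2 of 10 were enriched and 6 depleted, against 34.6% and 33.3% of all transcripts. Txn1 stood at −0.27 ± 0.11 (SD, n = 3, edgeR adjusted p = 0.0464). None of the 9 tested in footprints passed 2-fold.

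The NEDD4-type ligases that alpha-arrestins recruit stayed close to their levels in the other libraries. Of 9 listed, 7 were tested, all within −0.15 to 0.09 against siLuc and 0.03 to 0.12 against untreated cells, with none past 2-fold. Itch, the ligase known to ubiquitinate TXNIP, was at 20.9, 19.7 and 20.1 RPKM with siLin28a, with siLuc and in untreated cells, with changes of 0.09 and 0.06. Nedd4 changed by 0.05 and 0.06, and Nedd4l by −0.12 and 0.03. In CLIP 3 of 7 were enriched and 3 depleted, near the 34.6% and 33.3% of all transcripts. AMPK is known to phosphorylate TXNIP and mark it for degradation; of its subunits and the upstream kinase Stk11, all 7 were tested and none passed 2-fold, with medians of −0.02 and 0.07. Prkaa1 changed by −0.04 and 0.01, Prkaa2 by −0.02 and 0.07, and Prkab1 by 0.07 and 0.19. In CLIP 1 of 6 was enriched and 3 depleted, against the same shares of all transcripts.

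Some listed genes were past 2-fold in at least 1 of these comparisons on fewer than 200 counts in all, and are not read further. They included Arrdc5 (5 counts over the 3 libraries), Sag (9), Arr3 (7), Pklr (50), Hk3 (4), Hecw1 (12) and Hecw2 (161).

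**Figure D5:**
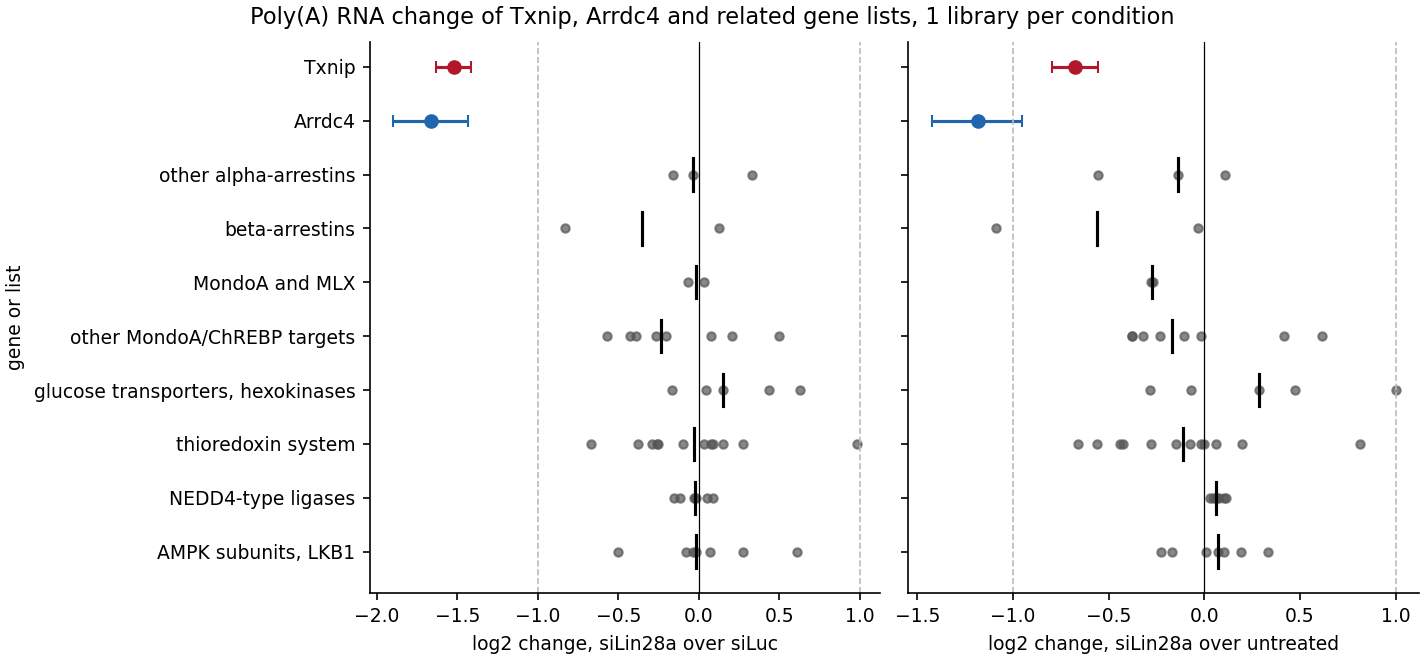
Log2 change in poly(A) RNA with siLin28a over siLuc (left) and over untreated cells (right) for Txnip and Arrdc4, with 95% counting intervals, and for each tested member of 8 related gene lists (grey points, black bars at list medians); dashed lines mark 2-fold. The arrestin pair lies at −1.52 and −1.66 on the left, and every listed gene lies between −0.83 and 0.98.

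The transcripts whose levels over the 3 poly(A) libraries were most like those of Txnip, by Euclidean distance of log2 CPM centred on each transcript's mean among 9672 transcripts, were Nlrc4 (0.05), Dmc1 (0.14), Trib3 (0.20), AI987944 (0.22) and Alg5 (0.25). Most were scarce: Nlrc4, an inflammasome sensor, had 4.89 CPM with siLin28a, 13.5 with siLuc and 7.66 in untreated cells. Trib3, a pseudokinase induced by amino acid and endoplasmic reticulum stress, had 21.2, 67.6 and 30.8 CPM in the same order and a footprint change of −0.70. Alg5, an enzyme of glycan precursor synthesis, had 12.7, 28.8 and 17.5 CPM, but a footprint change of 0.23.

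For Arrdc4 the nearest were Bcas1 (0.17), Rbm44 (0.24), Myh3 (0.24), Lama3 (0.26) and Dmc1 (0.31). Lama3, a laminin chain, was the only one near Arrdc4 in abundance, with 22.6 CPM with siLin28a, 59.5 with siLuc and 54.6 in untreated cells, and a footprint change of −1.65. Dmc1, the meiotic recombinase, was in both sets. Arrdc4 ranked 22nd for Txnip and Txnip 18th for Arrdc4, at a distance of 0.37. Of their log2 changes, −0.68 for Txnip and −1.18 for Arrdc4 with siLin28a over untreated cells lay furthest apart, and −1.52 and −1.66 with siLin28a over siLuc lay closest.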

How the data were processed

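The mouse build mm9, GSNAP and bedtools are named per the submitters' processing notes; what each did, in which version, and how reads were counted is not given in the sources used here. Whole-read counts per RefSeq transcript were deposited by the authors: exon, coding and 3′ UTR counts for CLIP, exon counts for poly(A) RNA, and footprint counts beside a second poly(A) tally. They also deposited RPKM, which equalled the values computed here from counts and transcript length for both genes, and log2 ratios, of which the log2 change of ribosome density is cited as theirs. Of the columns with values per sample, 8 were left unused.

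Txnip, Arrdc4 and the gene lists were chosen with earlier results of these data known. Named genes were the first 3 measured members of each list, any measured member changed 2-fold in poly(A) RNA, and the 5 transcripts nearest each arrestin. Changes are log2 ratios of CPM with a pseudocount of 0.5 counts. Ranks of changes used transcripts with 200 or more counts, summed over the libraries of that assay, and ranks of density used 50 or more per assay. RPKM levels were ranked over all 16456 transcripts. Intervals are exact and cover counting error only (Poisson for levels, Clopper-Pearson for shares and ratios), apart from a normal approximation for density. The change in ribosome density is the log2 footprint change less the poly(A) change of the same table. For CLIP, 3 libraries were compared in edgeR 4.0.16 under R 4.3.3 (TMM, filterByExpr, quasi-likelihood test) with 1 untreated poly(A) library, with Benjamini-Hochberg adjustment over 7820 transcripts and a threshold of 0.05; DESeq2 1.42.0 was an alternative. Region shares used transcripts averaging 20 or more reads. Both procedures were tested on simulated data. Sequences came from RefSeq windows in GRCm38.p6, which were not set against mm9 coordinates, and both promoters matched by symbol. One listed gene is not reported here.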

Additional observations from a re-analysis of the deposited data

How the results depend on the processing

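Over 56 alternatives for the values of Txnip and Arrdc4, none changed a direction. In 54 the value stayed on its side of the test's threshold or, with no test, within its counting interval or SD. Some of the 54 could not have come out otherwise, so the count overstates what was tested. A mean coding share without 1 antibody cannot leave the SD of the full set of antibodies. Dropping the CLIP filter on low counts changed no value, as all 7820 transcripts passed it. Txnip CLIP enrichment was 0.47 in place of 1.31 with siLuc as input. Arrdc4 in poly(A) RNA stood at −1.28 against siLuc by the footprint table's tally, in place of −1.66, and its CLIP enrichment was 0.42 (edgeR adjusted p = 0.066) with siLuc as input, an alternative chosen after seeing the data; the cause of either was not tested. Leaving out 1 antibody at a time gave CLIP enrichments of 1.26 to 1.37 for Txnip (edgeR adjusted p of 3.8e-23 to 2.3e-06) and 0.83 to 0.99 for Arrdc4 (0.000343 to 0.00665), coding shares of 37.5 to 40.4% and 31.1 to 33.2%, and counts of 2581 to 2677 enriched and 2474 to 2589 depleted transcripts. Scaling CLIP by total counts in place of TMM gave 0.94 for Txnip (adjusted p = 6.5e-07) and 0.52 for Arrdc4 (adjusted p = 0.0303), with 1984 transcripts enriched and 3605 depleted against 2702 and 2604.

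With no filter on low counts, 16456 transcripts gave 1259 at least 2-fold lower and 2132 higher for siLin28a against siLuc, 1711 and 1715 against untreated cells, and 1981 and 1099 for siLuc against untreated cells, since scarce transcripts then enter. Footprint counts were 245 lower and 547 higher with TMM, and 244 and 551 with DESeq2 size factors, against 578 and 243 by total counts. With the poly(A) table's tally, the density change of Arrdc4 was 0.97 in place of 0.58; scaled by total counts without centring, it was 0.36 (−0.28 to 1.00) and that of Txnip 0.58 (0.22 to 0.93). With 34 and 82 footprints, counting error limits what can be said of Arrdc4 translation. No paired analysis was possible because each siRNA condition has 1 library and the CLIP libraries share 1 input.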
